A study of Mus musculus with 6 samples.

Results

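The BCL2 family sets whether a cell keeps its mitochondria intact or dies by apoptosis. Its members fall into guardians that hold the outer mitochondrial membrane closed (Bcl2, Bcl2l1, Mcl1 and the Bcl2a1 copies), effectors that open it (Bax), and BH3-only proteins that sense damage or loss of survival signals and tip the balance towards opening (Bcl2l11, Pmaip1, Bbc3). In peritoneal lavage cells the family is of interest because lymphocytes and macrophages live side by side and, in the study described here, were given dying cells to clear. 10 genes, chosen by name with earlier results of these data known, were followed here among the 55538 features of the count table. They were Bcl2, Bcl2l1, Mcl1, Bcl2a1a, Bcl2a1b, Bcl2a1d, Bcl2l11, Bax, Pmaip1 and Bbc3. All 10 had UMIs (unique molecular identifiers, 1 per captured RNA molecule), from 264 for Bbc3 to 15658 for Mcl1 in the cells kept.

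The data are droplet single-cell RNA sequencing of lavage cells from mice labelled C57BL/6 (C57BL/6J in the study's methods) that were plated for 1 h and rinsed. The 6 libraries, each pooled from 3 mice aged 8 to 12 weeks, are MerTK +/+ or MerTK -/- cells (the latter from the MerKD line, backcrossed to C57BL/6J), each after a media change only, or after 2 or 6 h with UV-treated apoptotic human Jurkat T cells that carry GFP. MerTK is a receptor by which macrophages take up apoptotic cells. Each barcode carries a library number from 1 to 6 but nothing that ties a number to a genotype or time, so genotype and time are not compared here. With 1 library a condition there is also no replicate, and no p-value is given.

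Values are therefore given as CPM, the UMIs of a gene per 1000000 UMIs of a class of cells pooled over libraries, with an exact Poisson 95% interval that covers counting error only, and by library number. A member was called higher or lower in a comparison when its pooled CPM differed at least 2-fold and every library number with at least 20 cells in both classes had the same direction. Pooled values are over all 6 libraries, also where a library had too few cells for a direction of its own. Genes under 10 CPM (mean of both classes) were not tested. Levels are compared between classes of cells and not between members, apart from the shares of the Bcl2a1 copies.

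7665 of 7760 barcodes were kept, from 953 to 1608 a library, with a median of 4378 UMIs. B cells (at least 4 UMIs of Cd79a and Cd79b) numbered 2948, T/NK cells (at least 2 of Cd3d, Cd3e and Nkg7) 514 and macrophages (at least 2 of Csf1r, Adgre1 and Fcer1g with few B or T/NK UMIs) 2773. Their median depths were 5416, 2813.5 and 4426 UMIs a cell. Of the markers outside these rules, Ms4a1 was seen in 70.0% of B cells and 0.433% of macrophages. Cd3g was in 56.8% of T/NK cells and 0.108% of macrophages, and Lyz2 in 98.4% of macrophages. Others were less distinct. The B marker Cd37 was in 84.9% of B cells, 38.9% of T/NK cells and 33.6% of macrophages. Ighm was in 23.2% of T/NK cells, and the T marker Lck in 13.3% of B cells. Of the NK markers, Klrd1 was in 19.5% of T/NK cells, and Klrb1c, Gzma, Ncr1 and Klre1 were in 1.17 to 3.89%. Although the label of all samples is peritoneal macrophage, macrophages made up 36.2% of the cells kept and B cells 38.5%. The 6 macrophage markers summed to 326 CPM in B cells, 1.86% of their macrophage level, and to 2266 CPM in T/NK cells, 12.9% of it. In T/NK cells this sum ran from 62.5 to 4805 CPM over libraries, and 47 of the 514 T/NK cells held at least 2 UMIs of the macrophage rule. T/NK levels are therefore given with and, where stated, without those 47 cells. 28 barcode sequences occurred in more than 1 library.

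The Bcl2a1 genes are near-identical copies on mouse chromosome 9 that encode A1, a guardian induced by antigen receptor, NF-kB and inflammatory signals. Their GENCODE positions on GRCm38 are 88723285 to 88731914 for Bcl2a1d (minus strand), 88956900 to 88962419 for Bcl2a1a (plus) and 89199209 to 89207827 for Bcl2a1b (plus). The coding sequences are 516 bases long; Bcl2a1a differs from Bcl2a1b at 11 of them and from Bcl2a1d at 7, and Bcl2a1b differs from Bcl2a1d at 6. The opening 100 coding bases, from the start codon, are shown because 7 of the 12 positions at which the copies differ lie there, and these letters are what lets a read be given to 1 copy. Capitals mark the positions at which the 3 copies are not all alike.
Bcl2a1a: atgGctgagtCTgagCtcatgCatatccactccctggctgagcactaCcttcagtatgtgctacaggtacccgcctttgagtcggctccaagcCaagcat
Bcl2a1b: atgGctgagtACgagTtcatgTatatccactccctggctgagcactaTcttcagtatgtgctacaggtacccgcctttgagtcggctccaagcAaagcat
Bcl2a1d: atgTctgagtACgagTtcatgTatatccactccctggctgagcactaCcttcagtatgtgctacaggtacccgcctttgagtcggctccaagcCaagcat
Windows of 98 bases were used, the cycles of the second read in the study's methods, which elsewhere name a longer read. Of these windows, 55.8% of the Bcl2a1a transcript, 42.2% of Bcl2a1b and 43.9% of Bcl2a1d occur in no other transcript of the annotation. The rest are shared among the copies or with the predicted gene Gm29094 (53 UMIs), so each copy's count is uncertain and the sum of the 3 is given beside it. Windows of the other members were all unique except for Bax, at 90.3%. The other members lie apart from these copies: Bcl2 on chromosome 1 (106538178 to 106714274, minus strand), Bcl2l1 on chromosome 2 (152780668 to 152831728, minus), Bcl2l11 on chromosome 2 (128126038 to 128162547, plus) and Mcl1 on chromosome 3 (95658788 to 95663176, plus). Bax and Bbc3 are on chromosome 7, at 45461697 to 45466898 (minus) and 16308393 to 16318205 (plus).

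The copies also differ just ahead of the gene. A stretch of 30 bases is shown because it holds letters read by EGR proteins, the transcription factors whose genes Egr3 and Egr4 were used to split the B cells below. The motif searched was GTGGGCG on both strands, and the capitals mark its reverse complement or the same position where it is changed. Sequences are from RefSeq promoter windows (250 bases before to 50 after a start) of GRCm38.p6.
Bcl2a1a, chr9:88956870-88956899 (plus strand): gctttcacagacCGCCCATgcacataagtg
Bcl2a1b, chr9:89199179-89199208 (plus strand): gctttcacagacCGCCCACgcacataagtg
Bcl2a1d, chr9:88731871-88731900 (minus strand): gctttcacagacCGCCCACgcacataagtg
Bcl2a1b and Bcl2a1d are identical over the 30 bases, and Bcl2a1a differs by C7T, counted from 1 at the 5′ end of the capitals. The capitals begin 18 bases before the annotated GENCODE start in Bcl2a1a and Bcl2a1b, and 26 bases after it in Bcl2a1d, whose annotated start lies further out. GTGGGCG occurs in 7.97% of the 32851 RefSeq windows. Windows were found for 9 of the members, and 3 of them held it, the third being Bcl2l11. The matches of Bcl2a1b and Bcl2a1d lie in the same copied stretch, so they do not count as separate matches. An NF-kB motif, GGGA and CC with any 4 bases between them, was in the windows of Bbc3, Bcl2a1b and Bcl2l11 and in 20.7% of all windows. These matches are letters only and say nothing of binding. Further upstream, 142 bases of Bcl2a1a and of Bcl2a1b were identical, and Bcl2a1d differed from them by 1 base and by lacking 6.

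Between B cells and macrophages the guardians split. Bcl2, the founding guardian on which mature lymphocytes rely, was the member higher in B cells, and Bcl2l1, Mcl1, Bcl2a1a and Bcl2a1b were lower in B cells than in macrophages. Of 9 members tested, 1 was called higher, against 19.6% of 7584 genes tested, and 4 lower, against 19.8%. The median log2 ratio of the members tested was -0.73 and that of all genes 0.07. 4 members (Bcl2a1d, Bcl2l11, Bax and Pmaip1) were not called and Bbc3 was under 10 CPM. No member is part of a class rule. The Bcl2a1 copies share reads, so they are not fully separate members.

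Bcl2 stood at 45.4 CPM (42.4 to 48.6) in B cells, with a lowest library of 29.7, a median of 42.5 and a highest of 56.0. In macrophages it was 16.6 CPM (14.5 to 18.9), from 13.5 to 21.5 with a median of 16.0. Every library of B cells lay above every library of macrophages, and the pooled ratio was 2.73-fold. In T/NK cells Bcl2 was 61.0 CPM (50.2 to 73.5), or 66.6 without the cells with macrophage UMIs. The T/NK libraries read 47.6, 100.5, 51.9, 81.3 and 33.0 CPM for numbers 1 to 5, and thus overlapped with B cells but not with macrophages. After thinning each cell to 1500 UMIs, 8.43% of T/NK cells (6.15 to 11.2), 7.08% of B cells (6.17 to 8.07) and 2.01% of macrophages (1.51 to 2.61) held a Bcl2 UMI.

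Bcl2l1 encodes BCL-XL, a guardian of long-lived and adherent cells. In macrophages it was 69.4 CPM (65.1 to 73.9), with a lowest library of 39.1, a median of 76.7 and a highest of 129.7. In B cells it was 6.54 CPM (5.43 to 7.82), from 3.26 to 7.86 over libraries with a median of 7.28. The groups did not overlap, and macrophages were 10.6-fold higher. T/NK cells gave 15.9 CPM (10.7 to 22.9) from 29 UMIs, with 24.9, 5.58 and 23.1 CPM in libraries 1 to 3 and no UMI in libraries 4 and 5, where a count of 0 allows up to 18.8 and 24.7 CPM. Without the 47 cells with macrophage UMIs the T/NK level was 4.86 CPM from 7 UMIs. The level in T/NK cells was thus 4.35-fold lower than in macrophages with all cells, and lower still without those 47.

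Mcl1 encodes a short-lived guardian whose RNA is quickly made and lost. It was 593 CPM (580 to 606) in macrophages, from 464 to 723 over libraries with a median of 609. In B cells it was 272 CPM (265 to 280), from 244 to 436 with a median of 263. The highest B-cell library, number 6, came close to the lowest macrophage library, number 3, without reaching it, and the pooled level was 2.18-fold lower in B cells. T/NK cells stood at 209 CPM (188 to 231), with 263, 206, 173, 194 and 206 CPM in libraries 1 to 5, and were 2.84-fold lower than macrophages. Without the 47 cells Mcl1 was 182 CPM in T/NK cells. B and T/NK libraries overlapped. An Mcl1 UMI was found in 55.4% of thinned macrophages, 32.2% of thinned B cells and 26.1% of thinned T/NK cells.

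**Figure D1:**
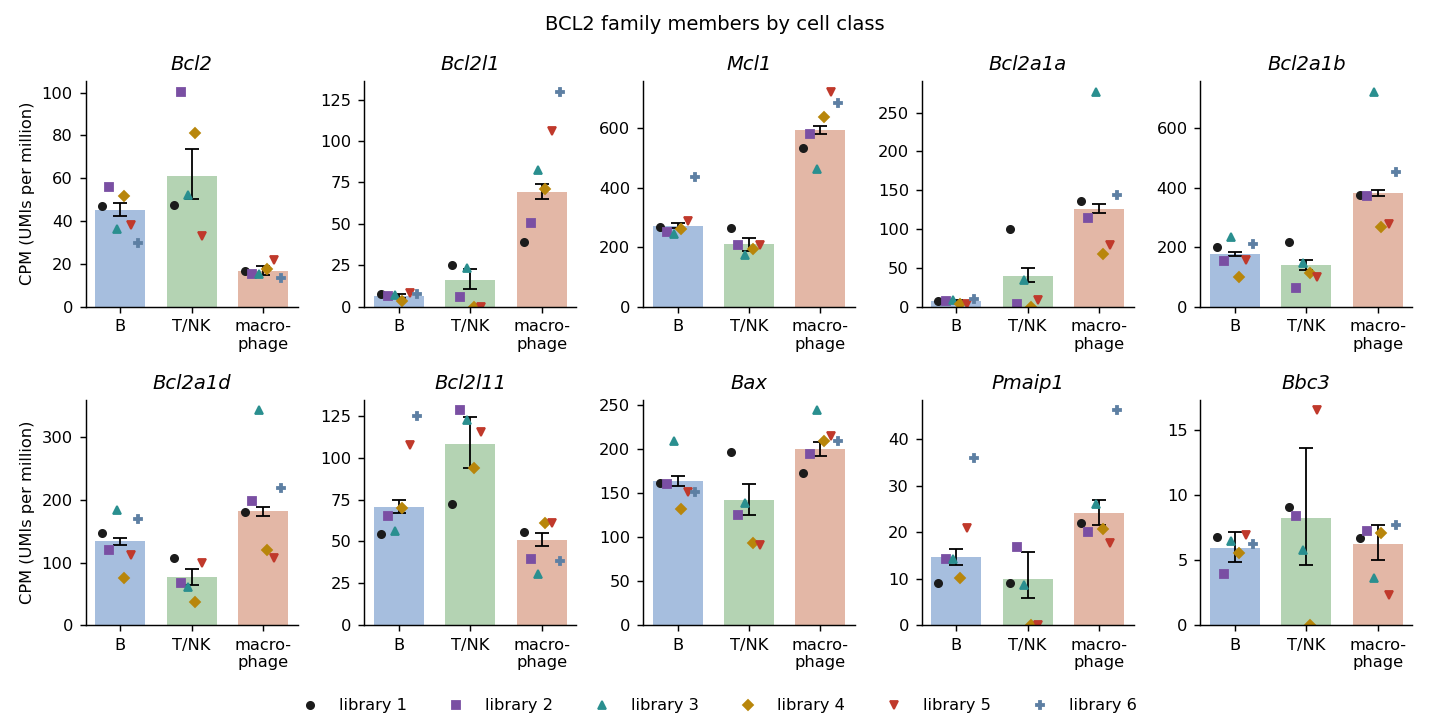
Level of each member in B cells, T/NK cells and macrophages, in CPM on a linear axis of its own per gene. Bars are pooled levels with exact Poisson 95% intervals and points are library numbers with at least 20 cells; Bcl2 was 45.4 CPM in B cells and 16.6 in macrophages, and Bcl2l1 6.54 and 69.4.

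The Bcl2a1 copies summed to 690 CPM (677 to 705) in macrophages, 316 (308 to 325) in B cells and 255 (232 to 279) in T/NK cells. The lowest macrophage library was at 455 CPM, the median at 687 and the highest, number 3, at 1343. For B cells these were 179, 318 and 424 CPM, and the groups did not overlap. T/NK libraries 1 to 5 read 422, 131, 241, 150 and 206 CPM. Without the cells with macrophage UMIs the T/NK sum was 128 CPM, 18.6% of the macrophage level, while that of B cells was 306, or 44.3%.

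The copies did not keep the same proportion in the 3 classes. Bcl2a1a made up 18.3% of Bcl2a1 UMIs in macrophages (95% exact binomial interval 17.5 to 19.1), 15.5% in T/NK cells (12.3 to 19.1) and 2.05% in B cells (1.70 to 2.45). Bcl2a1b held 55.4%, 54.5% and 55.6%, and Bcl2a1d 26.3%, 30.0% and 42.3%, in that order of classes. Bcl2a1b thus kept about the same share, while in B cells the share of Bcl2a1a was smaller and that of Bcl2a1d larger. The level of Bcl2a1d was not higher in B cells, at 134 CPM against 182 in macrophages. By library the share of Bcl2a1a was 14.9 to 20.6% in macrophages and 1.36 to 2.61% in B cells. In T/NK cells without the 47 cells with macrophage UMIs it was 5.95% (3.01 to 10.4), and Bcl2a1d held 40.0%. The interval covers counting error only, and the loss of reads shared among copies was not measured.

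Bcl2a1a was 126 CPM (120 to 132) in macrophages, from 67.7 to 277 over libraries, and 6.49 CPM (5.38 to 7.76) in B cells, from 3.26 to 10.2. B cells were 19.4-fold lower, the widest gap of any member, and no libraries overlapped. Without the 101 B cells that held at least 2 macrophage-rule UMIs it was 3.30 CPM, or 2.61% of the macrophage level. The summed macrophage markers in the same cells were at 0.299% of theirs. In T/NK cells it was 39.6 CPM in all and 7.63 CPM from 11 UMIs without the 47 cells. Bcl2a1b was 382 CPM (372 to 393) in macrophages, from 268 to 723, and 176 CPM (170 to 182) in B cells, from 100.2 to 232, which was 2.17-fold lower and without overlap. T/NK cells were at 139 CPM (123 to 157), and at 69.4 without the 47 cells. Bcl2a1d was 182 CPM (175 to 189) in macrophages and 134 (129 to 139) in B cells, with overlapping libraries, and was not called; T/NK cells were at 76.4 CPM, or 51.3 without the 47 cells, called 2.38-fold lower than macrophages. That call was lost without library 3 (log2 ratio -0.93). Bcl2a1d was called lower in B cells too (-1.48) when the class rules were read from thinned cells.

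**Figure D2:**
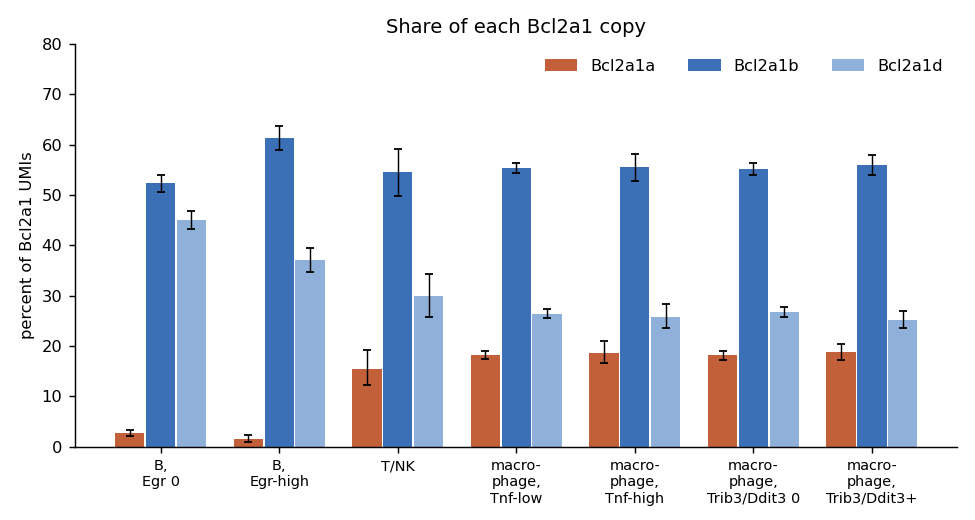
Percent of all Bcl2a1 UMIs given to Bcl2a1a, Bcl2a1b and Bcl2a1d in 7 classes of cells, with exact 95% binomial intervals; the 2 macrophage splits hold the same cells divided in different ways. Bcl2a1a stands near the axis in B cells (2.64% without Egr UMIs and 1.51% in Egr-high cells) and at 18.1 to 18.7% in the 4 macrophage classes.

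Against macrophages, T/NK cells had 2 members higher (Bcl2 and Bcl2l11), where 19.9% of 7786 genes were called higher, and 6 lower, where 20.1% were called lower, of 9 tested. The 6 were Bcl2l1, Mcl1, the 3 Bcl2a1 copies and Pmaip1. The copies share reads, so they are not fully separate members. Pmaip1 rested on 18 T/NK UMIs, with none in libraries 4 and 5, which the rule counts as lower. Finding none there still allows levels that reach the macrophage range over libraries, so these directions are weak. With doublet calls and the 47 cells out, the same counts stood and the log2 ratios of Bcl2l1 and Bcl2a1a went from -2.12 and -1.67 to -3.84 and -4.05. Against B cells, T/NK cells had no member called in either direction, where 8.41% and 7.97% of 7790 genes were called higher and lower. 3 members had the same direction in 5 of 5 libraries and were under 2-fold. Bcl2a1d was lower in T/NK cells (log2 ratio -0.81, -1.07 to -0.56), Mcl1 was lower (-0.38, -0.53 to -0.23) and Bcl2l11 was higher (0.62, 0.39 to 0.84). Bcl2a1a, at 2.61, went both ways over libraries. Bcl2a1d was called (-1.37) when doublets and the cells with macrophage UMIs were left out.

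The effector Bax differed little between classes. It was 200.2 CPM (193 to 208) in macrophages, 164 (158 to 170) in B cells and 142 (126 to 161) in T/NK cells. The macrophage libraries ran from 173 to 244 CPM and the B-cell libraries from 132 to 209, with overlap, although within each of the 6 libraries B cells were the lower. T/NK libraries 1 to 5 read 197, 126, 139, 93.8 and 90.7 CPM, and the T/NK level was 127 CPM without the 47 cells. Bax was called in none of the comparisons between classes or splits.

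Bcl2l11 encodes BIM, the BH3-only protein that limits the life of lymphocytes and myeloid cells deprived of survival signals. It was 108 CPM (93.7 to 125) in T/NK cells, with 72.6, 128, 123, 93.8 and 115 CPM in libraries 1 to 5, and 115 CPM without the 47 cells. B cells gave 70.6 CPM (66.8 to 74.5), from 54.3 to 125 with a median of 67.4, and macrophages 50.9 CPM (47.2 to 54.9), from 30.4 to 61.2 with a median of 47.6. All T/NK libraries lay above all macrophage libraries, with a pooled ratio of 2.13-fold, while B cells overlapped with both. In B cells libraries 5 and 6 were the highest, at 107 and 125 CPM, and in macrophages they were at 60.8 and 38.5. The call against macrophages was lost under 6 alternative settings, among them without library 2 (log2 ratio 0.97) and without library 3 (0.90).

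Pmaip1 encodes NOXA, a BH3-only protein that targets MCL1, and was low. Macrophages gave 24.1 CPM (21.6 to 26.8), from 17.7 to 46.2 over libraries, and B cells 14.5 CPM (12.9 to 16.4), from 9.13 to 36.0. Library 6 was the highest in both, and the ranges overlapped. T/NK cells gave 9.90 CPM from 18 UMIs, or 3.47 CPM from 5 UMIs without the 47 cells. Bbc3, which encodes the p53 target PUMA, was at 5.90 CPM (4.84 to 7.11) in B cells, 8.25 (4.62 to 13.6) in T/NK cells (9.71 without the 47) and 6.24 (4.99 to 7.71) in macrophages. Its intervals overlapped in all 3, and it was under 10 CPM in every comparison.

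Among the members tested, the widest difference within B cells was in Bcl2a1b. B cells were split by the immediate early genes Egr3 and Egr4, which follow antigen receptor signalling, into 308 Egr-high cells (at least 2 UMIs), 223 with 1 UMI and 2417 with none. Bcl2a1b was higher in Egr-high cells, Bcl2a1d nearly so, and Mcl1 was slightly above in each library. The pooled ratios of Bcl2, Bcl2l11 and Bax stayed near 1. By library their log2 ratios went both ways, from -0.70 to 0.41, from -0.43 to 1.05 and from -0.43 to 0.36. Of 7 members tested 1 was called higher, against 2.33% of 7302 genes, and none lower, against 2.66%. The median log2 ratio was 0.37 for the 7 members and -0.02 for all genes. Bcl2l1, Bcl2a1a and Bbc3 were under 10 CPM and were not tested. Egr-high cells were deeper, with a median of 8230.5 UMIs against 5015, and held fewer UMIs of the 5 B-cell markers, 2331 CPM against 3082. Erythroid genes summed to 0.363 CPM in Egr-high cells and to 456 CPM in Egr-negative cells, from 0 to 3451 over libraries, and macrophage markers to 392.3 and 301 CPM. With doublet calls and cells holding at least 2 macrophage-rule UMIs left out, Bcl2a1b was still called higher. The part of the erythroid genes, and of macrophage RNA in the cells that stayed, in the ratios below was not tested.

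Bcl2a1b in libraries 1 to 6 read 521, 402, 354, 247, 270 and 265 CPM in Egr-high cells and 129, 101, 188, 79.9, 119 and 182 CPM in Egr-negative cells. Every Egr-high library lay above every Egr-negative library. Pooled, it was 369 CPM (347 to 392.5) against 125 (119 to 131), 2.95-fold higher, with a log2 ratio of 1.56 (1.45 to 1.67), above 99.2% of genes tested. At 1500 UMIs a cell, 42.5% of Egr-high cells (36.9 to 48.3) and 11.2% of Egr-negative cells (9.94 to 12.5) held a Bcl2a1b UMI. Among cells of 4000 to 8000 UMIs, a setting added after the data were seen, the log2 ratio was 2.30 over the 3 libraries that still had 20 cells in both classes.

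Bcl2a1d in libraries 1 to 6 read 265, 222, 266, 152, 158 and 157 CPM in Egr-high cells and 113, 93.6, 163, 59.9, 96.2 and 158 CPM in Egr-negative cells. The pooled log2 ratio was 1.05 (0.91 to 1.19), 2.07-fold, but in library 6 the classes were level, so it was not called. Without library 6 it was called, at 1.14. The sum of the copies was 601 CPM against 239, 2.52-fold higher and above in 6 of 6 libraries. Bcl2a1a was 9.06 CPM (5.87 to 13.4) against 6.31 (5.05 to 7.78), from 25 and 87 UMIs, and went both ways over libraries. The share of Bcl2a1b among the copies was 61.4% in Egr-high cells (59.0 to 63.8) and 52.4% in Egr-negative cells (50.6 to 54.1). By library it ran from 56.5 to 66.1% and from 50.8 to 56.1%, with no overlap.

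Cells with 1 Egr UMI had intermediate Bcl2a1b, at 264 CPM (242 to 288). In libraries 1 to 6 they read 362, 268, 240, 160, 271 and 237 CPM, above Egr-negative cells in all 6 libraries and below Egr-high cells in 5, library 5 being level. Bcl2a1d in these cells was 194 CPM (175 to 215), which overlapped with the Egr-high interval of 206 to 241. Their median depth was 7840 UMIs.

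**Figure D3:**
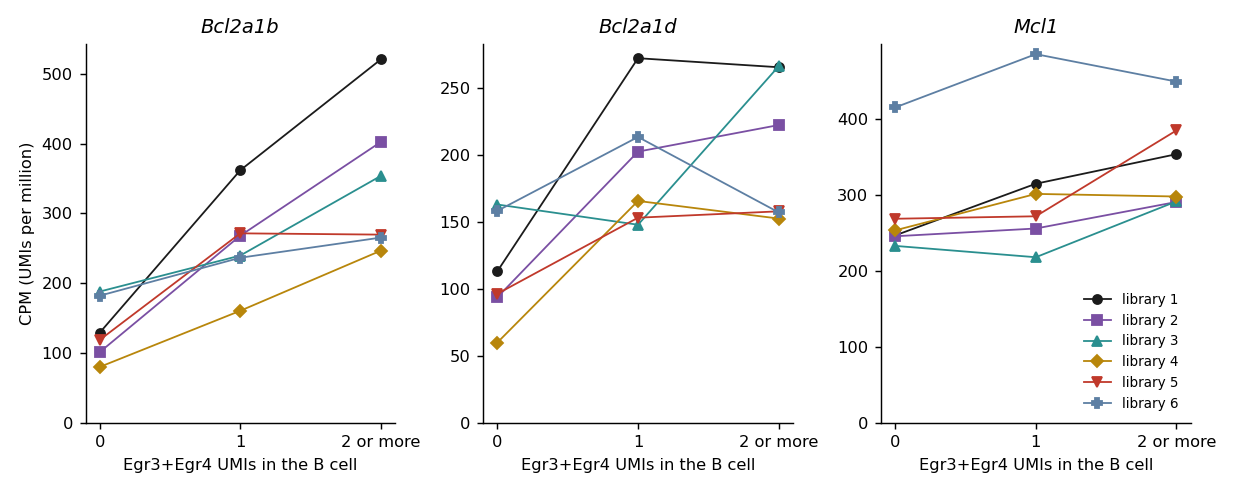
CPM of Bcl2a1b, Bcl2a1d and Mcl1 in B cells with 0, 1 and at least 2 UMIs of Egr3 and Egr4, on linear axes that start at 0, with a line for each library number. All 6 lines of Bcl2a1b end higher than they begin, at 369 against 125 CPM when pooled, while that of library 6 is flat for Bcl2a1d.

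Mcl1 was 332 CPM (311 to 355) in Egr-high cells and 257 (248 to 265) in Egr-negative cells, a log2 ratio of 0.37 (0.27 to 0.48). It was higher in 6 of 6 libraries, by 0.11 to 0.52, and under the 2-fold that a call needs. Bcl2l1 read 12.7 CPM (8.84 to 17.6) from 35 UMIs against 5.44 (4.28 to 6.81) from 75, higher in 5 of 6 libraries. Bcl2 was 44.6 CPM against 47.5, Bcl2l11 73.6 against 69.7 and Bax 168 against 155, with intervals of the log2 ratio that all held 0. Pmaip1 was 17.8 CPM (13.1 to 23.5) against 13.3 (11.5 to 15.4) and Bbc3 6.89 against 5.44.

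**Figure D4:**
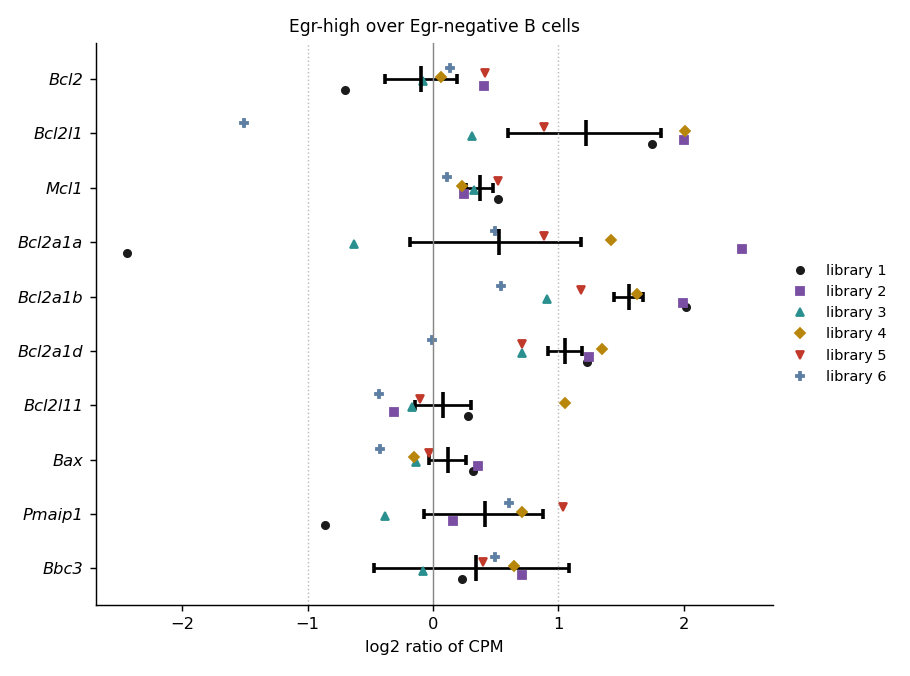
Log2 ratio of CPM in Egr-high over Egr-negative B cells for the 10 members. Black bars are pooled ratios with exact 95% intervals, points are library numbers, and dotted lines mark 2-fold; Bcl2a1b lies at 1.56 with all 6 libraries to the right of 0, and Bcl2, Bcl2l11 and Bax straddle 0.

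The 154 B cells with a UMI of Fcer2a, the CD23 gene of B-2 cells, crossed this split: 8.44% of Egr-high and 4.80% of Egr-negative cells were Fcer2a-positive. Of 7 members tested against the 2794 others, none was called higher, where 0.216% of 7401 genes were, and none lower, where 0.743% were. Bcl2a1b was 294 CPM in them and 169 in the others (log2 ratio 0.80, 0.62 to 0.97), higher in 4 of 5 libraries. Among Fcer2a-negative cells alone, a setting added after the data were seen, the Egr ratio of Bcl2a1b was 1.52 and higher in 6 of 6 libraries.

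In macrophages the split by Tnf, the cytokine gene of inflammatory activation, separated Mcl1 and Bcl2l1 most. The 260 Tnf-high cells (at least 2 Tnf UMIs) were set against 2513 others, with directions read in the 5 libraries that had 20 or more of them. Library 5 had 18. Of 9 members tested none was called higher, against 0.808% of 6810 genes, and none lower, against 1.01%. The median log2 ratio of all genes was -0.19, and that of the members 0.15. Tnf-high cells were deeper, at a median of 6297.5 UMIs against 4304.

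Mcl1 was 797 CPM (756 to 841) in Tnf-high cells and 564 (551 to 578) in the others. Libraries 1, 2, 3, 4 and 6 read 728, 746, 488, 1002 and 775 CPM in Tnf-high cells, and 498, 556, 460, 581 and 680 in the others. Tnf-high cells were above in 5 of 5 libraries, by 0.09 to 0.79, and the pooled log2 ratio of 0.50 (0.41 to 0.58) lay above 96.2% of genes tested. It was under 2-fold and so was not called.

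Bcl2l1 went the other way, at 35.2 CPM (26.8 to 45.3) from 60 UMIs in Tnf-high cells and 74.2 (69.4 to 79.2) in the others. In libraries 1, 2, 3, 4 and 6 it read 23.2, 18.3, 88.3, 30.5 and 0 CPM in Tnf-high cells and 41.9, 55.0, 81.4, 77.3 and 137 in the others. It was lower in 4 libraries and not in library 3, so its log2 ratio of -1.08 (-1.48 to -0.70), below all but 1.19% of genes tested, was not called. Without library 3 it was called, at -1.42, and so it was with at least 4 Tnf UMIs (-2.43) and with thinned levels (-1.39). The Bcl2a1 sum was 772 CPM against 679, a log2 ratio of 0.18 (0.10 to 0.27), and Bax was 184 against 203. Bax was lower in the 5 libraries used, by 0.09 to 0.87, and higher in library 5, and its pooled log2 ratio of -0.14 (-0.31 to 0.03) lay above that of 56.7% of genes tested, so its direction turns when read relative to the median of all genes.

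Trib3 and Ddit3 are targets of the integrated stress response, and Ddit3 encodes CHOP, a factor known to act on BCL2 family genes. The 625 macrophages with a UMI of either were set against 2148 with none. No member was called higher, against 0.231% of 6925 genes, or lower, against 0.491%, of 9 tested. Log2 ratios were between -0.23 for Pmaip1 and 0.28 for Bcl2l1, and the interval excluded 0 for Bcl2l1 alone (0.08 to 0.48), at 79.7 CPM against 65.7 and higher in 5 of 6 libraries. Bcl2l11 was 50.7 CPM (43.6 to 58.5) against 51.0 (46.7 to 55.6), with an interval of -0.26 to 0.23 around a log2 ratio of -0.01. Mcl1 was 597 CPM against 591, with an interval of -0.06 to 0.09. Bbc3, under 10 CPM, was 5.75 against 6.42 CPM. Stress-positive cells were deeper, at a median of 5377 UMIs against 4196.5.

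Both splits together gave 4 sets of macrophages. Mcl1 was 571 CPM (555 to 587) in the 1970 cells with neither sign, 544 (518 to 570) in the 543 with Trib3 or Ddit3 only, 761 (710 to 814) in the 178 with Tnf only and 862 (790 to 939) in the 82 with both. Bcl2l1 was 69.0 CPM (63.7 to 74.7), 89.6 (79.3 to 101), 37.6 (27.0 to 51.0) and 30.9 (18.6 to 48.3) in the same order. These intervals cover counting error only, and the libraries of the sets other than that with both signs overlapped. Over libraries with 20 cells, Mcl1 ran from 467 to 733 CPM with neither sign (6 libraries), from 444 to 609 with Trib3 or Ddit3 only (6) and from 481 to 919 with Tnf only (4). With both signs the 2 such libraries read 749 and 1111 CPM, above all libraries with neither sign or with Trib3 or Ddit3 only. Bcl2l1 ran from 34.8 to 138 CPM, from 64.2 to 136 and from 0 to 104, and read 7.64 and 45.5 CPM with both. The latter lay below all libraries with Trib3 or Ddit3 only.

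**Figure D5:**
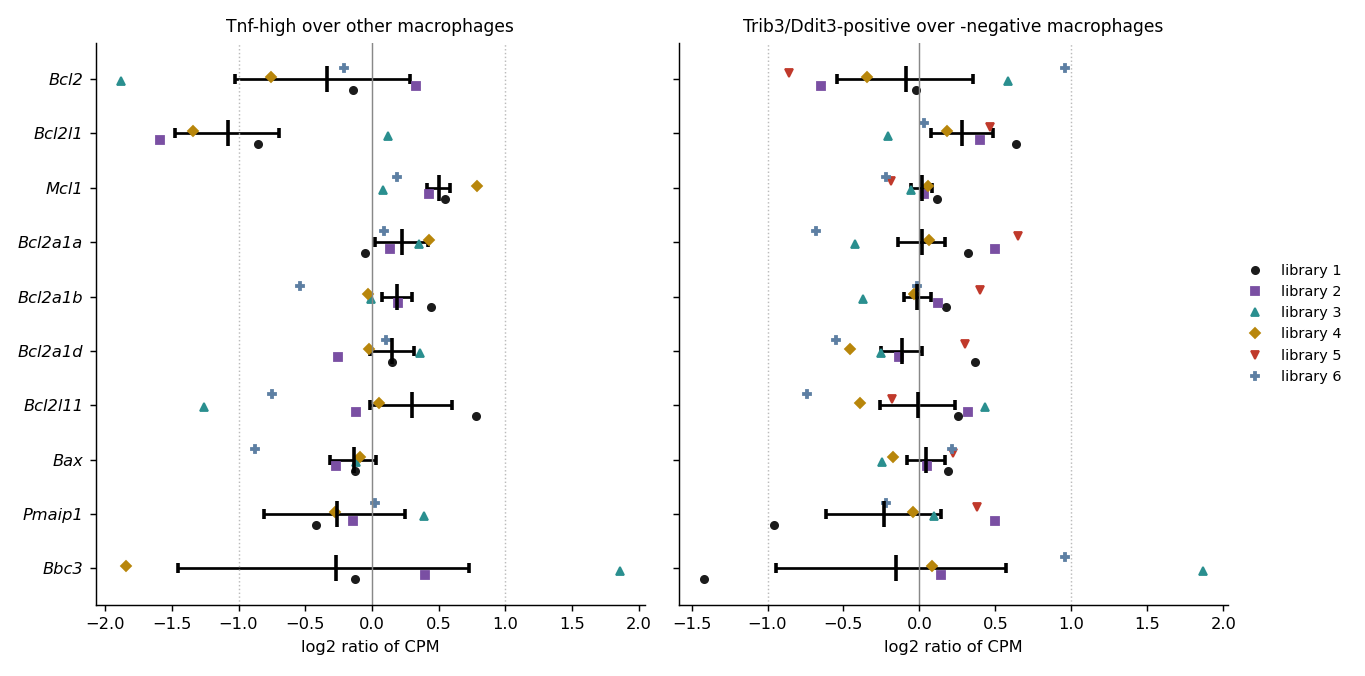
Log2 ratio of CPM for the 10 members in Tnf-high over other macrophages (left) and in Trib3/Ddit3-positive over -negative macrophages (right). Black bars are pooled ratios with exact 95% intervals, points are library numbers with at least 20 cells in both classes, a library with 0 UMIs in a class has no point, and dotted lines mark 2-fold; Mcl1 lies at 0.50 and Bcl2l1 at -1.08 on the left, and all pooled ratios on the right lie between -0.23 and 0.28.

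Between macrophages with genes of the large and of the small peritoneal type, the Bcl2a1 copies were the members called. The 807 cells with at least 2 UMIs of Gata6, Timd4 and Selp (large below) and the 241 with at least 2 of Irf4, Fcrls and Ccr2 (small) shared 4 libraries with 20 cells of each. All 3 Bcl2a1 copies were called lower in large macrophages, where 9.17% of 7075 genes were, and no member was called higher, where 7.18% were, of 9 tested. The copies share reads, so they are not fully separate members and this count is not to be read as 3 independent calls. The Bcl2a1 sum in libraries 1, 3, 4 and 6 was 468, 858, 341 and 408 CPM in large cells and 1800.2, 2000, 909 and 1346 in small cells, 3.40-fold higher when pooled. Bcl2a1a showed the widest gap, at 65.1 CPM against 358. Pmaip1 was 17.98 CPM in large and 48.3 in small cells (log2 ratio -1.43, -1.92 to -0.92), lower in 3 of 4 libraries and level in library 4, at 17.1 against 16.4 CPM. Bax was 166 against 279 CPM (-0.75, -0.94 to -0.56), lower in 3 of 4. Mcl1 was 591 CPM in large and 500.4 in small cells, higher in large cells in 4 of 4 libraries (log2 ratio 0.24, 0.11 to 0.37). Among T/NK cells, the 40 with at least 2 Nkg7 UMIs gave 385 CPM of Bcl2a1 from 61 UMIs and the 405 without Nkg7 197 CPM, with no library that had 20 cells of each. Cells with macrophage UMIs were not left out of either set, and their part in these levels was not tested. Over all T/NK cells the Bcl2a1 sum was 255 CPM with them and 128 without.

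42 further genes of the death pathways, listed with earlier results of these data known, were read in the same way. Between B cells and macrophages 31 were tested, of which 2 were called higher in B cells and 8 lower, where 19.6% and 19.8% of all genes tested were. 4 of the lower genes belong to the death receptor group, among them the TNF receptor Tnfrsf1a (5.35 against 145 CPM), the death receptor Fas (3.95 against 26.8 CPM) and the caspase-8 inhibitor Cflar (94.1 against 285 CPM). The p53 targets Cdkn1a, a cell cycle inhibitor, and Mdm2, which degrades p53, were at 24.3 against 381 and 34.7 against 151 CPM. Apaf1, the scaffold of the apoptosome, was at 9.57 against 41.7 CPM. The genes higher in B cells were the BH3-only Bid (29.2 against 9.22) and the executioner caspase Casp6 (15.0 against 6.39).

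T/NK cells had 2 of 30 pathway genes higher and 7 lower than macrophages, where 19.9% and 20.1% of all genes tested were. Casp2 was 22.5 against 4.35 CPM and the p53 target Trp53inp1 39.0 against 10.8. Among those lower was Bak1, the effector that acts beside Bax, at 24.2 against 55.5 CPM. Compared with B cells, 4 of 30 were higher and 3 lower, where 8.41% and 7.97% of all genes were. Tnfrsf1a (43.4 against 5.35 CPM) and Fas (29.7 against 3.95) were the largest of the former. The T/NK levels given here include the 47 cells with macrophage UMIs, and the part of those cells in them was not tested. Within B cells 1 of 26 was called, Trp53inp1, lower in Egr-high cells at 9.43 against 21.2 CPM. Within macrophages the Tnf split called 0 of 28, and the Trib3/Ddit3 split 1 of 29, the stress-induced Sesn2, at 38.4 against 9.38 CPM. The inhibitors of apoptosis and their antagonists had 6 of 7 genes tested in each comparison and none called.

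The genes whose levels ran most like those of a member were found over 35 points, each a class of 7 exclusive classes in 1 library with at least 20 cells, among 5404 features. Points of a library share its depth and those of a class its cell type, so the Pearson r of log2(CPM + 10) is a description. Mcl1 ran with Zfand5 (0.95), Mafg (0.94) and Cflar (0.92). Bcl2a1b ran with Gng5, Bhlhe40 (0.89 each) and Hilpda (0.88), and Bcl2 with Slc50a1, Nol7 (0.88 each) and Nmi (0.87). Of these 4 members Bcl2l11 had the weakest likeness, with the predicted genes Gm10132 (0.79) and Gm15500 and the ribosomal protein gene Rpl5 (0.76 each).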

How the data were processed

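Lavage cells of 6 libraries were sequenced on the 10x Genomics platform. The deposited table holds raw UMI counts per gene and barcode, which the authors made with Cell Ranger against mm10 (the submitters' notes name Cell Ranger 2.2 and Seurat 3.0); the annotation is not given in the sources used here. Libraries held 4234786 to 10287079 UMIs. Barcodes under 500 genes or over 10% mitochondrial UMIs were removed, as in the study's methods. The study's limit of 0.8 on UMIs per gene was applied as log genes over log UMIs, since UMIs per gene are never under 1. Cells that passed the B and the T/NK rule (153) were left out of both classes. Scrublet (scanpy 1.11.5, per library) called 63 doublets, 0.822% of cells, which stayed in except in an alternative. UMIs were summed per class; intervals are exact (scipy 1.17.1). Cells were thinned to 1500 UMIs with a fixed seed, which left out 16 T/NK cells, 38 B cells and 83 macrophages. Levels and ratios were pooled over all 6 libraries, and the direction was read in each. Pathway genes were named when called, at most 6 a direction, the largest first. The members and lists were chosen with earlier results of these data known; the copy shares, read windows, motifs and the values without cells holding macrophage UMIs were chosen after the data were seen. The call rule was tested on simulated data for the Egr comparison only, with changes larger than its limit and a fixed noise between libraries. That test does not show how the rule does near its limit, with wider noise or in the other comparisons.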

Additional observations from a re-analysis of the deposited data

Results flagged for a closer look

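Signals were present in cells that entered no comparison. In the 1277 cells that met no class rule, 514 of them in library 6, Mcl1 was at 386 CPM, Bcl2a1b at 262, Bax at 214, Bcl2a1d at 199, Bcl2l11 at 83.8, Bcl2a1a at 44.5, Pmaip1 at 32.6, Bcl2 at 32.1, Bcl2l1 at 27.7 and Bbc3 at 10.2. In the 153 cells that met the B and the T/NK rule, with a median of 10045 UMIs, Mcl1 was at 262 CPM, Bax at 212, Bcl2a1b at 193, Bcl2a1d at 140.5, Bcl2l11 at 86.6, Bcl2 at 53.2, Pmaip1 at 13.6, Bcl2l1 at 11.1, Bbc3 at 6.19 and Bcl2a1a at 2.48. Bcl2a1c, a further Bcl2a1 row that was not among the members, had 20 UMIs in all cells kept. Libraries were not searched for outlying values, since each condition had 1 library.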

How the results depend on the processing

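No paired analysis was possible because library numbers are not tied to the labelled groups; classes of cells were compared within each library number, as the call rule asks. No member called with the main settings turned its direction under the alternatives run. A turn was not scored for members called only in an alternative, and members never called were not followed. The members called between Egr-high and Egr-negative B cells (1) became 3 with levels from thinned cells and 2 with scaling by the median ratio, at 4 or more Egr UMIs, at equal depth and without library 6, the second member being Bcl2a1d (log2 ratio 1.03 to 1.55) and the third Bbc3 (1.43). Leaving out libraries gave 1 to 2. The genes called (364) became 722 at 1 CPM, 120 at 50 CPM, 1013 at 1.5-fold and 791 at equal depth. For the Tnf split 0 members became 1, Bcl2l1, with thinned levels, at 4 or more Tnf UMIs and without library 3 (range 0 to 1 over libraries left out). Its genes (124) became 253 with thinned levels, 548 at 1 CPM, 56 at 50 CPM, 437 at 1.5-fold, 447 at 4 or more UMIs and 266 at equal depth. Its split of 55 higher and 69 lower became 71 and 23 with the scaling, which removes the shift of -0.19 in all genes. For the Trib3/Ddit3 split no member was called with any library left out. Its genes (50, of which 16 higher) became 87 with rules on thinned cells, 115 with thinned levels, 183 at 1 CPM, 18 at 50 CPM, 258 at 1.5-fold, 196 at 2 or more UMIs, 19 higher and 24 lower with the scaling, and 47 to 85 with a library left out, most without library 1. Between B cells and macrophages the 5 members became 3 at 50 CPM, where Bcl2 and Bcl2l1 are under the filter, and the 2983 genes became 5327 at 1 CPM and 1165 at 50 CPM. Between T/NK cells and macrophages the 8 members became 5 at 50 CPM and 6 to 8 with a library left out, and the 3110 genes became 1245 at 50 CPM. Between T/NK and B cells 0 members became 1 with doublets out and 2 with thinned levels (Bcl2a1d and Pmaip1) or at 1.5-fold (Bcl2a1d and Bcl2l11). The 1276 genes became 513 with cells of more than 1 class kept, 2131 at 1 CPM, 455 at 50 CPM and 2130 at 1.5-fold. The filters and folds change the genes that can be called; for the other settings the cause was not tested. The equal depth setting was chosen after seeing the data. At these depths Bbc3 and, in lymphoid cells, Bcl2l1, Bcl2a1a and Pmaip1 rest on few UMIs.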
